A study of Mus musculus with 11 samples.

Results

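Lumbar intrathecal delivery (ITL) of blood-forming cells was compared with delivery into the cerebral ventricles (ICV) through the RNA of microglia-like cells that were later sorted from mouse brain. The comparison used 6 of the 11 libraries of the series: 3 from ITL recipients and 3 from ICV recipients. The members were chosen by their route labels, and each ITL library was paired with the ICV library of the same sorted population. The populations are labelled µ or TAµ for CD45.1 cells and µ for CD45.2 cells. CD45.1 and CD45.2 are alleles of the leukocyte antigen gene Ptprc that separate donor from host blood cells in a competitive transplant; which of them is the host's is not given in the labels, nor what TAµ stands for. Each route thus held 1 library of each population, all of polyadenylated RNA from sorted myeloid cells of the brain. The series title places the work in a mouse model of Alzheimer's disease, but the labels give no age, sex, time after transplantation, disease genotype or number of animals behind a library, and the stated genotype is the CD45 allele alone. In the stated design, ventricular delivery was followed by intravenous cells, at once or some days later; whether the recipients behind these ICV or ITL libraries had received such cells is not in the labels. The ICV library labelled PBS and the control library were not part of the comparison, and the PBS library is quoted for a few genes only. The 3 libraries of intravenous recipients (IV) entered the statistical fit and are quoted for orientation.

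Microglia are the resident macrophages of the brain and arise before birth. After conditioning and transplantation, blood-forming cells can give rise to brain macrophages that take up part of the microglial programme, such as the fractalkine receptor Cx3cr1, and usually lack some of its transcription factors, such as Sall1. Cells placed in the ventricles or in the lumbar sac enter the cerebrospinal fluid directly, whereas intravenously given cells must cross from the blood. The study explored the lumbar route as an alternative to the ventricular one.

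Total counts were 10947623, 9513898 and 6090589 in the ITL libraries of CD45.1 µ, of CD45.1 TAµ and of CD45.2 µ cells, against 11139686, 11961069 and 21282823 in the matching ICV libraries. Between 12232 and 15485 genes had a count in an ITL library, and between 11456 and 14668 in an ICV library; ICV CD45.1 µ had the fewest. Levels below are CPM, which is the count of a gene relative to all counts of its library after scaling for composition. Values by library or by pair always start with CD45.1 µ, go on with CD45.1 TAµ and end with CD45.2 µ. The cells carried microglial and macrophage transcripts under both routes. Cx3cr1 had 3343, 2487 and 3480 CPM in ITL libraries and 2570, 3236 and 3406 CPM in ICV libraries, and Ptprc had 598, 866 and 726 CPM in ITL libraries and 711, 657 and 664 CPM in ICV libraries.

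No gene passed the test. By the quasi-likelihood test of edgeR, adjusted after Benjamini and Hochberg, 0 of 13339 genes were higher (0%) and 0 were lower (0%) in ITL than in ICV libraries at an adjusted p under 0.05, and the smallest adjusted p was 0.9998. Without adjustment, 161 genes with a higher level (1.21%) and 236 with a lower one (1.77%) had a p under 0.05, 397 in all, where about 667 of the tested genes would by chance. DESeq2 called 14 genes higher and 18 lower, and limma-voom with quality weights 2 higher and 1 lower. When its filter on low counts was left out, edgeR called 14 genes higher and 20 lower, several of them named below. With 1 library per route and population, the test measured the spread that route and population leave, and route cannot be told apart from differences between the animals behind the libraries. Every gene and group below is therefore a description of these 6 libraries: none of the named differences passed the adjusted threshold in the reported edgeR fit.

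The 3 populations shared little of their route difference. Of all genes tested, 50.4% had a fitted value above 0 and 49.6% below 0. The sign was the same in all 3 pairs, higher in ITL, for 1719 genes (12.9%), and lower for 1638 (12.3%). The 3 ITL libraries all lay above the 3 ICV libraries for 647 genes (4.85%) and all below them for 675 (5.06%); scaled by library totals alone these counts were 861 and 440. Across 8308 well-measured genes the ITL minus ICV difference of the CD45.1 µ pair had a Pearson correlation of 0.03 with that of the CD45.1 TAµ pair and 0.13 with that of the CD45.2 µ pair, and the CD45.1 TAµ and CD45.2 µ pairs had -0.03; these are correlations across genes, which are not independent replicates. The CD45.1 µ pair differed most. Among genes with at least 100 counts in the higher library, 740 were past 4-fold higher (7.91%) and 629 past 4-fold lower (6.73%) in ITL CD45.1 µ than in ICV CD45.1 µ. In the CD45.1 TAµ pair 152 were past 4-fold higher (1.69%) and 381 lower (4.23%), and in the CD45.2 µ pair 94 were higher (0.975%) and 196 lower (2.03%).

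Of 8132 genes with at least 100 counts in a library of every pair, 6 were past 4-fold higher in ITL in all 3 pairs (0.0738%) and 2 past 4-fold lower (0.0246%). The 6 were Adgre4, Fgr, Cd300e, Spn, Plac8 and Hist1h2ac. The first 5 are genes of blood monocytes in mouse, and Hist1h2ac encodes an H2A histone. The 2 lower ones were Btbd8, which had 2.12, 1.35 and 0.47 CPM in ITL libraries and 9.34, 15.9 and 5.96 CPM in ICV libraries, and 4931440P22Rik, a transcript without a gene name. Cd300e, Spn, Plac8 and these lower genes were singled out after their values were seen.

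Genes of patrolling monocytes formed the group with the widest shift towards ITL. Patrolling monocytes are the blood monocytes that crawl along vessel walls, and in mouse they are marked by low Ly6c. Adgre4, an adhesion receptor of this subset, had 15.5, 120 and 97.9 CPM in ITL libraries, against 0, 10.1 and 4.62 CPM in ICV libraries. All 3 ITL libraries lay above all 3 ICV libraries, and the fitted log2 fold change was 4.46 ± 1.36 (SE). Fgr, a Src-family kinase of myeloid cells, had 41.2, 79.0 and 74.7 CPM in ITL libraries, against 0.58, 15.3 and 16.6 CPM in ICV libraries (log2 fold change 2.78 ± 0.86 SE). Ace, the gene of angiotensin-converting enzyme, had 30.2, 145 and 87.9 CPM in ITL libraries, against 13.5, 5.54 and 9.14 CPM in ICV libraries (2.70 ± 0.94 SE). Treml4, a receptor of the Trem family, had 4.86, 37.2 and 32.8 CPM in ITL libraries, against 0, 0 and 2.77 CPM in ICV libraries. In each of these genes the groups did not overlap, and ITL CD45.1 TAµ was the highest library. The ICV library labelled PBS, outside the comparison, had 37.8, 47.7 and 67.2 CPM of Adgre4, Fgr and Ace. These levels lie in the ITL range of each gene.

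**Figure D1:**
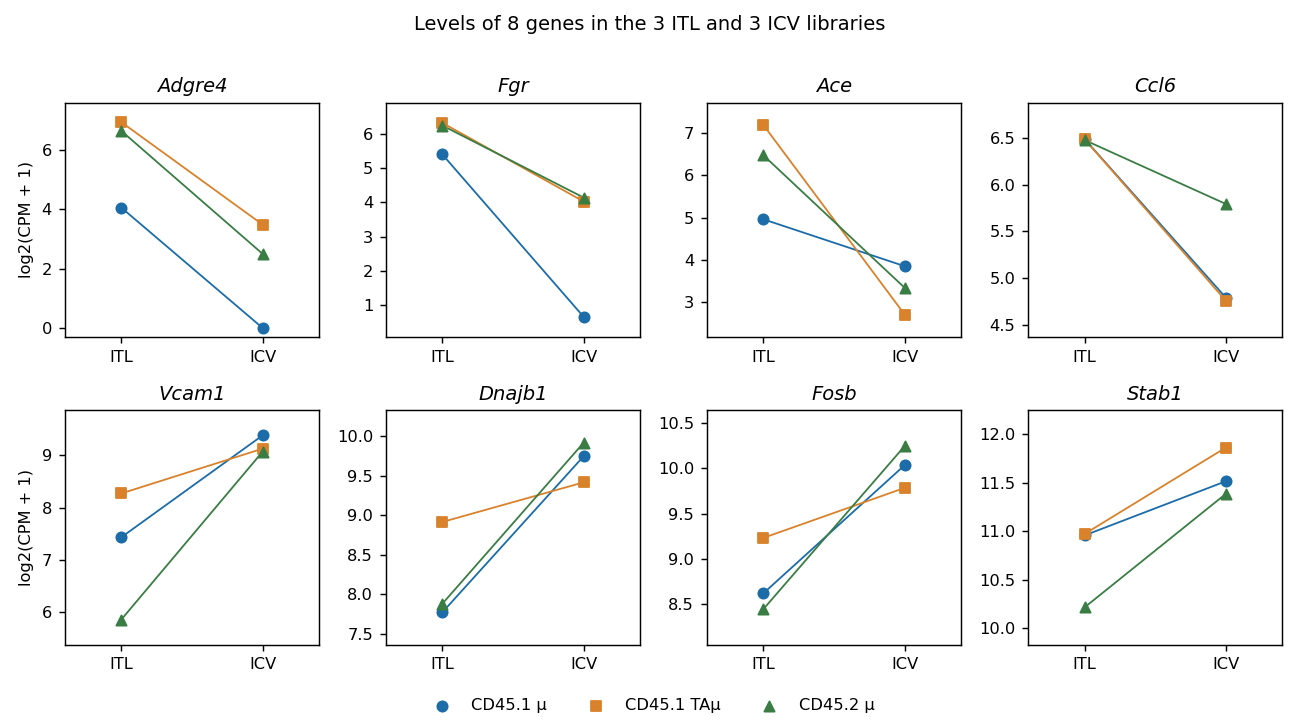
Level of 8 genes, as log2(CPM + 1), in the 3 ITL libraries (left of each panel) and the 3 ICV libraries (right), with a line joining the libraries of 1 sorted population; the vertical axes differ between panels and do not start at 0. In the upper row every ITL library is above every ICV library, and in the lower row every ITL library is below every ICV library.

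All 10 tested members of the patrolling monocyte list had a fitted value above 0, with a median log2 fold change of 2.51, where the median of all genes was 0.01. In 5 of them the ITL libraries all lay above the ICV libraries, beside 4.85% of all genes, and 8 had the same sign in all 3 pairs, beside 12.9%. The pair medians were 1.68, 2.26 and 2.16. Nr4a1, a nuclear receptor that patrolling monocytes need and that activated cells also induce, did not take part: it had 294, 456 and 454 CPM in ITL libraries and 298, 286 and 511 CPM in ICV libraries. The summed level of the 11 listed genes was 658, 1340 and 1146 CPM in ITL libraries, against 538, 560 and 753 CPM in ICV libraries. By these sums ITL CD45.1 µ was below ICV CD45.2 µ. That order rested on Nr4a1, which alone held 294 of the 658 CPM and 511 of the 753 CPM. It was a large part of the sums of the other libraries too. In ITL libraries 1, 0 and 0 members were at 0, and in ICV libraries 4, 2 and 0. Without ITL CD45.2 µ the list median was 1.39. In sorted cells of a whole brain, more cells of a type and more RNA per cell cannot be told apart.

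Genes of classical monocytes, the inflammatory subset that enters tissue from blood, had the same tilt. Plac8 had 20.6, 94.6 and 92.0 CPM in ITL libraries, against 0.66, 21.1 and 14.8 CPM in ICV libraries. Its lowest ITL level was just under its highest ICV level. Ly6c2, a surface antigen of this subset, had 32.5, 33.2 and 37.7 CPM in ITL libraries, against 15.3, 3.44 and 21.4 CPM in ICV libraries, with no overlap. Fn1, the gene of fibronectin, had 97.7, 171 and 440 CPM in ITL libraries and 39.0, 170 and 102 CPM in ICV libraries, so its ITL CD45.2 µ library stood apart. F10, the gene of coagulation factor X, had 3.36, 19.1 and 21.6 CPM in ITL libraries, against 0, 0 and 3.03 CPM in ICV libraries. The defining receptor Ccr2 overlapped, with 27.0, 100 and 94.8 CPM in ITL libraries and 39.7, 32.9 and 61.7 CPM in ICV libraries. Of 15 tested members 14 had a fitted value above 0, the median log2 fold change was 1.42, and the groups did not overlap for 6, beside 4.85% of all genes. The pair medians were 2.06, 1.95 and 0.93, and without ICV CD45.2 µ the list median was 3.13.

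**Figure D2:**
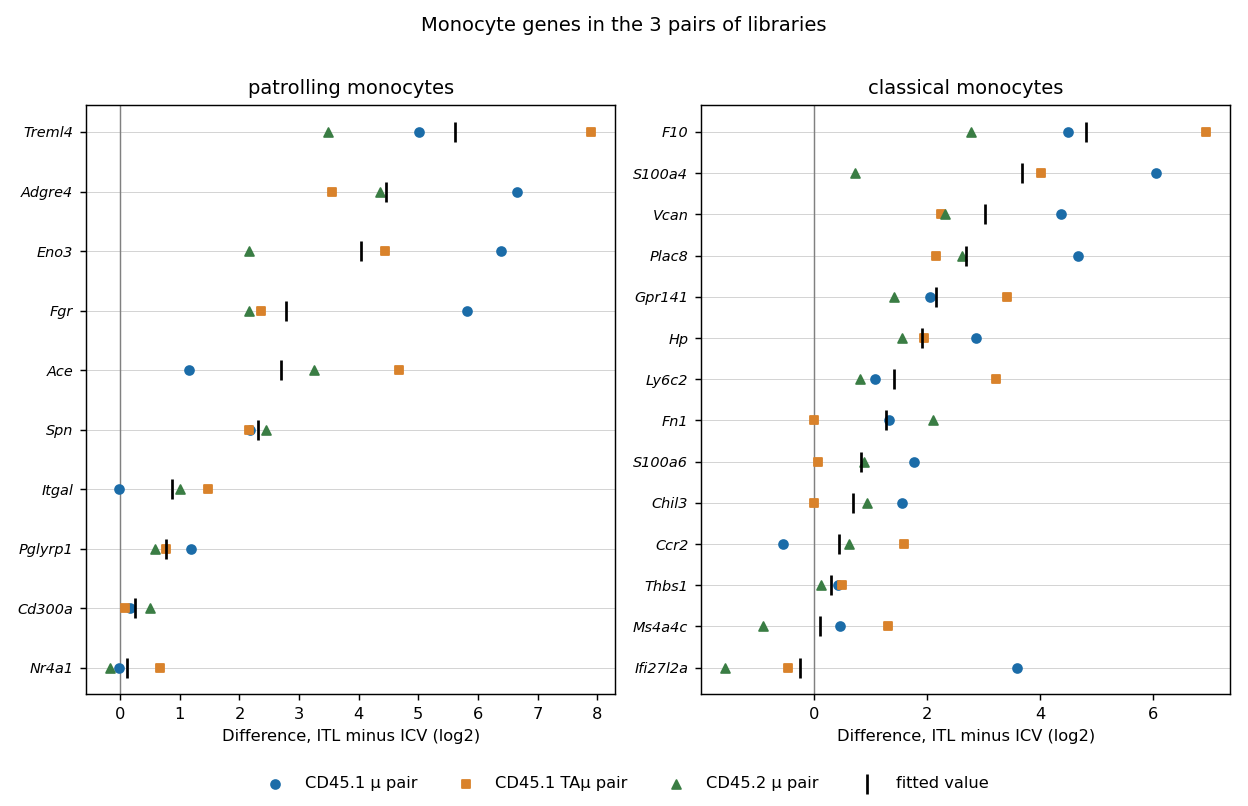
ITL minus ICV difference (log2, prior count 2) of the 10 tested patrolling monocyte genes (left) and of 14 of the 15 tested classical monocyte genes (right) in the 3 sorted populations, with the fitted value as a black bar; genes run from the highest fitted value at the top to the lowest. The median fitted value is 2.51 for the 10 patrolling genes and 1.42 for the 15 classical genes, and Ifi27l2a is the 1 gene shown with a fitted value below 0.

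The IV libraries were uneven in monocyte genes. The classical monocyte list summed to 1821, 1494 and 117 CPM in IV libraries, beside 799, 1021 and 1802 CPM in ITL libraries and 381, 599 and 1020 CPM in ICV libraries, and 11 of its 15 genes were at 0 in IV CD45.2 µ. Without the 2 libraries that had the fewest genes detected, ICV CD45.1 µ and IV CD45.2 µ, edgeR called 8 genes higher in ITL and 3 lower, an alternative chosen after the data were seen. The 8 were Adgre4, Ace, Gda, Cd44, Fgr, Ceacam1, Gsr and Rtn1, and the 3 were Mpo, Tsc22d3 and Vcam1. In that fit the adjusted p of Ace was 0.000144, where the other alternatives gave from 0.00318 to 1.

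Other blood cell markers were less even. The neutrophil list, read from 19 genes, summed to 4217, 1974 and 4683 CPM in ITL libraries and to 1743, 1409 and 3760 CPM in ICV libraries. Retnlg, a granule gene of mature neutrophils, had 113, 119 and 214 CPM in ITL libraries and 36.1, 19.8 and 134 CPM in ICV libraries, and its groups overlapped, as did those of all 16 tested members. Of these 12 had a fitted value above 0, with a median of 0.44, which was 0.09 without ICV CD45.1 µ and 1.63 without ICV CD45.2 µ. Mpo, the myeloperoxidase gene of granulocyte precursors, had 0, 2.93 and 0 CPM in ITL libraries, against 0, 107 and 0 CPM in ICV libraries, and so rested on ICV CD45.1 TAµ alone. T and NK cell genes were scarce throughout: 16 genes summed to 5.65, 41.4 and 3.88 CPM in ITL libraries and to 13.1, 32.5 and 27.4 CPM in ICV libraries. The part of such cells in the differences of monocyte genes was not tested.

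Among adhesion and homing genes, Vcam1 had the smallest p of all genes in the lower direction. It encodes the vascular cell adhesion molecule that binds the integrin made by Itga4 and Itgb1, and some tissue macrophages express it. Vcam1 had 172, 308 and 56.9 CPM in ITL libraries, against 666, 558 and 537 CPM in ICV libraries. The highest ITL library was below the lowest ICV library, and the 3 ICV libraries were close to each other while the ITL libraries spread. The fitted log2 fold change was -2.04 ± 0.36 (SE), and the difference was -1.96 in the CD45.1 µ pair, -0.86 in CD45.1 TAµ and -3.24 in CD45.2 µ. The adjusted p of edgeR's quasi-likelihood test was 0.9998 with the filter on low counts and 1.20e-07 without it, and the other alternatives gave from 7.69e-07 to 1. IV libraries had 179, 284 and 95.5 CPM of Vcam1, which lie in the ITL range. The ICV library labelled PBS had 177 CPM, also in the ITL range.

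Other members of the list had higher levels in ITL libraries. Itgb2, the shared chain of the leukocyte integrins, had 376, 271 and 423 CPM in ITL libraries, against 174, 175 and 257 CPM in ICV libraries (log2 fold change 0.81 ± 0.22 SE). Cd44, a receptor for hyaluronan, had 237, 263 and 290 CPM in ITL libraries, against 104, 43.5 and 139 CPM in ICV libraries (1.5 ± 0.45 SE). Neither gene's groups overlapped. Cxcr4, the receptor that holds blood-forming cells in marrow, had 136, 273 and 81.2 CPM in ITL libraries and 254, 235 and 285 CPM in ICV libraries; its CD45.1 TAµ pair was higher in ITL and the other pairs were lower. Of 23 tested homing genes 15 had a fitted value above 0 and 8 below, with a median of 0.32, which was 0.12 without ITL CD45.2 µ and 0.54 without ICV CD45.1 TAµ. The groups did not overlap for 4 higher and 2 lower genes, beside 4.85% and 5.06% of all genes, so the lower count was close to the share of all genes.

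The chemokine gene Ccl6, which mouse macrophages and neutrophils express, had the smallest p of all genes in the higher direction. It had 88.7, 88.7 and 88.1 CPM in ITL libraries, against 26.7, 26.1 and 54.4 CPM in ICV libraries. The ITL libraries were almost equal, and all lay above the ICV libraries (log2 fold change 1.38 ± 0.31 SE). Its relative Ccl9 had 35.7, 70.0 and 57.3 CPM in ITL libraries and 10.3, 41.2 and 37.0 CPM in ICV libraries, with the same sign in each pair and overlapping groups. Of all 17 chemokine genes tested, 12 had a fitted value below 0, with a median of -0.25. The groups did not overlap for Ccl6 alone, which is near the 4.85% of all genes that lay higher without overlap. The negative list median rested on the CD45.2 µ pair, whose median was -0.91, while the CD45.1 µ and CD45.1 TAµ pairs had medians of 0.10 and 0.25. Without ICV CD45.2 µ the sign turned, with a list median of 0.38.

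Heat shock genes had lower levels in ITL libraries. Heat shock proteins are chaperones that cells induce when proteins misfold, and warm tissue digestion before a sort is one known inducer. Dnajb1, a co-chaperone of Hsp70, had 217, 481 and 234 CPM in ITL libraries, against 858, 682 and 966 CPM in ICV libraries (log2 fold change -1.60 ± 0.38 SE). Bag3, another Hsp70 partner, had 55.2, 62.1 and 63.7 CPM in ITL libraries, against 144, 104 and 204 CPM in ICV libraries (-1.32 ± 0.31 SE). Hspb1, a small heat shock protein, had 48.7, 59.0 and 89.2 CPM in ITL libraries, against 148, 140 and 205 CPM in ICV libraries (-1.34 ± 0.34 SE). Hsph1, a large chaperone of the Hsp110 class, had 228, 382 and 306 CPM in ITL libraries, against 1171, 463 and 816 CPM in ICV libraries (-1.45 ± 0.43 SE). In these 4 genes no ITL library reached the lowest ICV library, and the gap was narrowest in the CD45.1 TAµ pair except for Hspb1.

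Of 17 heat shock genes tested, 15 had a fitted value below 0 and 2 above, with a median log2 fold change of -0.84. The groups did not overlap for 10, beside 5.06% of all genes. Hspa1a had 1174, 1622 and 1679 CPM in ITL libraries, against 3155, 2112 and 3132 CPM in ICV libraries; its near-identical copy Hspa1b had 1275, 1787 and 1761 CPM in ITL libraries and 3498, 2263 and 3504 CPM in ICV libraries, and reads of the pair may have been split in counting. The chaperones of the endoplasmic reticulum overlapped: Hspa5 had 1048, 1236 and 1425 CPM in ITL libraries and 1332, 1205 and 1464 CPM in ICV libraries. The pair medians were -1.38, -0.28 and -0.62. The list median was -0.52 without ICV CD45.1 µ, -1.27 without ICV CD45.1 TAµ, and -0.35 without both ICV CD45.1 µ and IV CD45.2 µ. Handling times are not given in the labels, and their part in these values was not tested.

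The promoters of 2 of these genes are shown because the genes differed together and hold the unit GAANNTTC, part of the known binding site of heat shock factors. The unit reads the same on both strands and does not overlap another motif searched. Each line gives the 150 bases before the transcription start from RefSeq in build GRCm38.p6, 5′ to 3′ on the strand of the gene, with the unit in capitals; these coordinates are those of that build and not of the build used for the counts. Hspb1 lies on the plus strand at chr5:135887769-135887918 and Hspa1a on the minus strand at chr17:34972157-34972306.
Hspb1: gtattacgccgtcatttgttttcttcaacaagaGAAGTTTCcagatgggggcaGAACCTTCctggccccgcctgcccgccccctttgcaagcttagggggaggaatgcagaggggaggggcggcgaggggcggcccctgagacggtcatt
Hspa1a: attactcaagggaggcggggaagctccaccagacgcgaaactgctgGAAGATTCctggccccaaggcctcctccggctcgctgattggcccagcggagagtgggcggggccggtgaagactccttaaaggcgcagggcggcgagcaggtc
Of the 17 listed genes 12 had a promoter window, and 6 of these held the unit within 250 bases before a start, beside 7.73% of all 27025 genes with a window. The 6 are not separate sites. Hspd1 and Hspe1 lie on opposite strands with overlapping windows and share the same copy of the unit. The near-identical Hspa1a and Hspa1b both hold it at position -104. The windows of Bag3, Dnajb1 and Hsph1 did not hold these letters there. A match is a description of the sequence and not a binding site.

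Immediate-early genes, which cells transcribe within minutes of a stimulus and which tissue dissociation is known to induce, also had lower levels in ITL libraries. Fosb, a subunit of the AP-1 factor, had 393, 600 and 349 CPM in ITL libraries, against 1047, 880 and 1211 CPM in ICV libraries (log2 fold change -1.31 ± 0.31 SE). Jund, another AP-1 subunit, had 349, 322 and 534 CPM in ITL libraries, against 714, 646 and 916 CPM in ICV libraries (-0.93 ± 0.25 SE). Klf2, a Krüppel-like factor, had 238, 206 and 241 CPM in ITL libraries, against 392, 338 and 377 CPM in ICV libraries (-0.69 ± 0.21 SE). The 3 genes had no overlap between the routes. Jun, the most abundant member, had 1881, 2163 and 3300 CPM in ITL libraries and 3939, 2892 and 4709 CPM in ICV libraries, and its groups overlapped.

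Of 27 immediate-early genes tested, 21 had a fitted value below 0 and 6 above, with a median of -0.56 and with no overlap for 11 lower genes and 0 higher ones, beside 5.06% and 4.85% of all genes. Egr1, a zinc finger factor of the same response, was in no such order: it had 422, 307 and 1707 CPM in ITL libraries and 713, 383 and 962 CPM in ICV libraries. The list median was -0.30 without ICV CD45.2 µ. IV libraries were higher than both routes for several members, with 2048, 3467 and 1388 CPM of Fosb, so ICV libraries lay between ITL and IV libraries there. Tsc22d3 and Per1, both targets of the glucocorticoid receptor, were also lower in each ITL library. Tsc22d3, the glucocorticoid-induced leucine zipper, had 94.0, 92.5 and 48.5 CPM in ITL libraries, against 161, 194 and 173 CPM in ICV libraries (-1.20 ± 0.25 SE). Per1, a clock gene, had 131, 145 and 213 CPM in ITL libraries, against 293, 243 and 299 CPM in ICV libraries (-0.80 ± 0.23 SE). The wider list of 21 glucocorticoid-responsive and clock genes had 13 members below 0, with a median of -0.34 and a median of 0.17 in the CD45.2 µ pair. The list median was -0.02 without ICV CD45.1 TAµ, -0.08 without ITL CD45.1 TAµ, -0.14 without ITL CD45.1 µ and -0.55 without ITL CD45.2 µ. The groups did not overlap for 3 lower genes and 1 higher one, beside 5.06% and 4.85% of all genes.

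**Figure D3:**
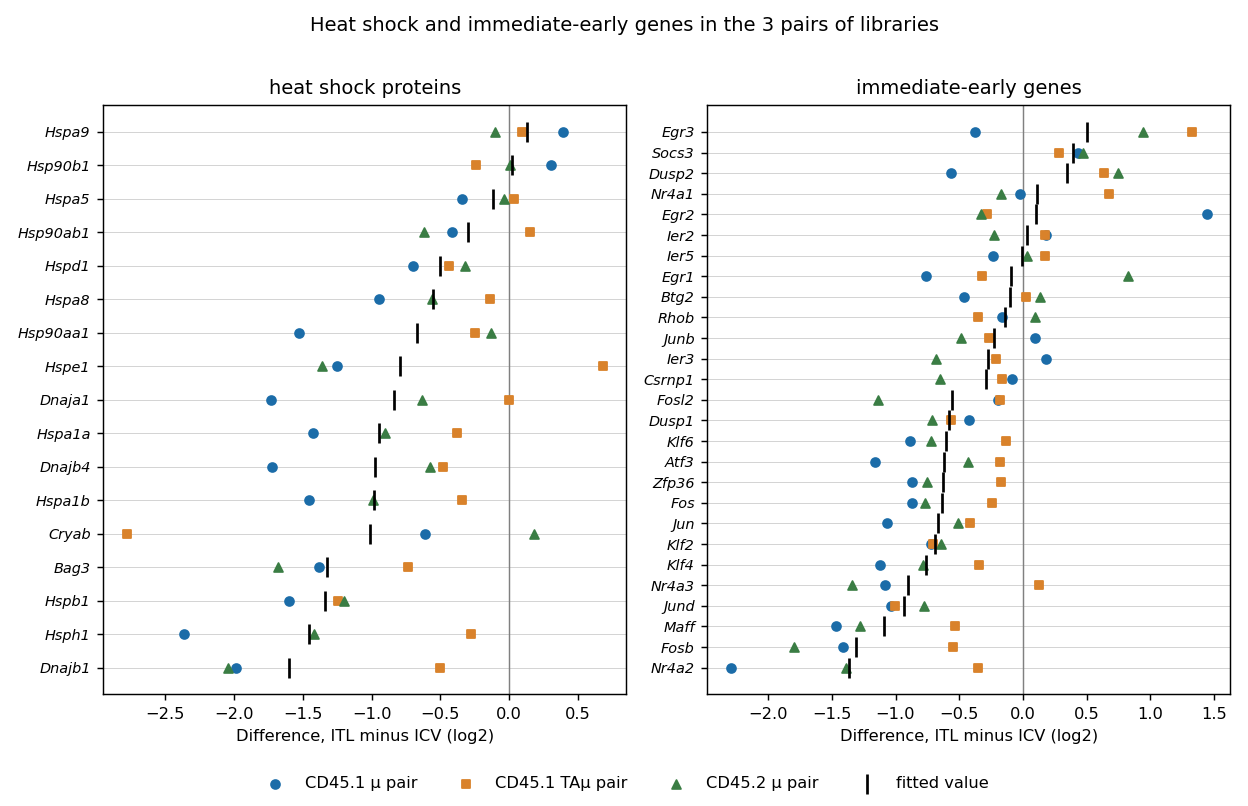
ITL minus ICV difference (log2, prior count 2) of each tested heat shock gene (left) and immediate-early gene (right) in the 3 sorted populations, with the fitted value as a black bar; genes run from the highest fitted value at the top to the lowest. Of the fitted values, 15 of 17 and 21 of 27 lie below 0, and the CD45.1 TAµ pair has medians of -0.28 and -0.21, nearer 0 than the other pairs.

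Markers of border-associated macrophages, the resident macrophages of the meninges, vessels and choroid plexus, had lower levels in ITL libraries. Stab1, a scavenger receptor, had 1984, 2004 and 1185 CPM in ITL libraries, against 2923, 3720 and 2672 CPM in ICV libraries (log2 fold change -0.87 ± 0.25 SE). Cp, the gene of the iron oxidase ceruloplasmin, had 184, 290 and 53.3 CPM in ITL libraries, against 362, 438 and 307 CPM in ICV libraries (-1.34 ± 0.33 SE). Dab2, an endocytic adaptor, had 481, 671 and 175 CPM in ITL libraries, against 1078, 899 and 700 CPM in ICV libraries (-1.21 ± 0.30 SE). The groups did not overlap in these genes, and ITL CD45.2 µ was the lowest library of each. Mrc1, the mannose receptor, had 1284, 1552 and 360 CPM in ITL libraries and 1943, 2227 and 1515 CPM in ICV libraries, with overlap. Of 21 tested members 15 had a fitted value below 0, the median was -0.48, and 4 lower genes did not overlap, beside 5.06% of all genes. The defining marker Lyve1 had 35, 21.8 and 31.4 CPM in ITL libraries and 38.8, 20.2 and 7.50 CPM in ICV libraries. The whole list summed to 5455, 5857 and 2638 CPM in ITL libraries, against 7797, 8813 and 6401 CPM in ICV libraries. The list median was -0.76 without ICV CD45.1 µ and -0.10 without ICV CD45.2 µ.

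Homeostatic microglial genes differed in sign between the pairs. Sall1, the transcription factor of resident microglia, had 348, 8.57 and 646 CPM in ITL libraries and 109, 7.35 and 188 CPM in ICV libraries (log2 fold change 1.19 ± 0.45 SE). Its relative Sall3 had 82.3, 2.03 and 183 CPM in ITL libraries and 34.9, 1.15 and 30.9 CPM in ICV libraries (1.48 ± 0.53 SE). Both genes were far lower in CD45.1 TAµ than in the other 2 populations under either route, and in those 2 populations the ITL library was the higher one. P2ry12, a purine receptor of resting microglia, had 2350, 825 and 3148 CPM in ITL libraries and 1290, 1095 and 1430 CPM in ICV libraries. Tmem119, a microglial membrane protein, had 684, 448 and 893 CPM in ITL libraries and 423, 589 and 570 CPM in ICV libraries. For these 2 genes the CD45.1 µ and CD45.2 µ pairs were higher in ITL and the CD45.1 TAµ pair was lower.

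Of 30 homeostatic genes tested, 24 had a fitted value above 0, with a median of 0.22, and the groups did not overlap for 2, which is near the 4.85% of all genes. Gpr34, a lysophospholipid receptor and 1 of these, had 928, 569 and 1115 CPM in ITL libraries, against 555, 536 and 532 CPM in ICV libraries. The pair medians were 0.67, -0.31 and 0.67. In the CD45.1 µ pair 27 of the 30 were higher in ITL, in the CD45.2 µ pair 24, and in the CD45.1 TAµ pair 7. Whether this differs between populations could not be tested with 1 library each. Without ITL CD45.1 µ the median was 0.05, and without ITL or ICV CD45.1 TAµ it was 0.53 and 0.70; it was 0.11 without ICV CD45.2 µ.

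Genes of graft-derived and disease-associated macrophages varied between populations. Apoe, the apolipoprotein gene and the main genetic risk locus of late Alzheimer's disease, had 22502, 28618 and 3968 CPM in ITL libraries and 16140, 31156 and 21338 CPM in ICV libraries. ITL CD45.2 µ stood far below the other 5 libraries, and the fitted value was -0.74 ± 0.56 (SE). Ms4a7, a marker of graft-derived brain macrophages, had 99.9, 296 and 36.7 CPM in ITL libraries and 190, 201 and 195 CPM in ICV libraries (-0.97 ± 0.43 SE). The ITL CD45.2 µ library was thus low in Apoe and Ms4a7 and high in Sall1 beside ICV CD45.2 µ. IV CD45.2 µ, a library with few genes detected, had 6150, 45.5 and 483 CPM of Apoe, Ms4a7 and Sall1. These levels were nearer to ITL CD45.2 µ than to ICV CD45.2 µ. Trem2, the lipid-sensing receptor of microglia, had 415, 486 and 339 CPM in ITL libraries and 208, 541 and 336 CPM in ICV libraries (0.21 ± 0.34 SE). Of 25 graft-derived macrophage genes 12 were above 0 and 13 below, with a median of -0.01, close to the median of all genes. Of 25 disease-associated microglial genes 18 were above 0, with a median of 0.17 that became -0.02 without ICV CD45.1 µ, and of 28 microglial genes at Alzheimer's risk loci 18 were above 0, with a median of 0.09.

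**Figure D4:**
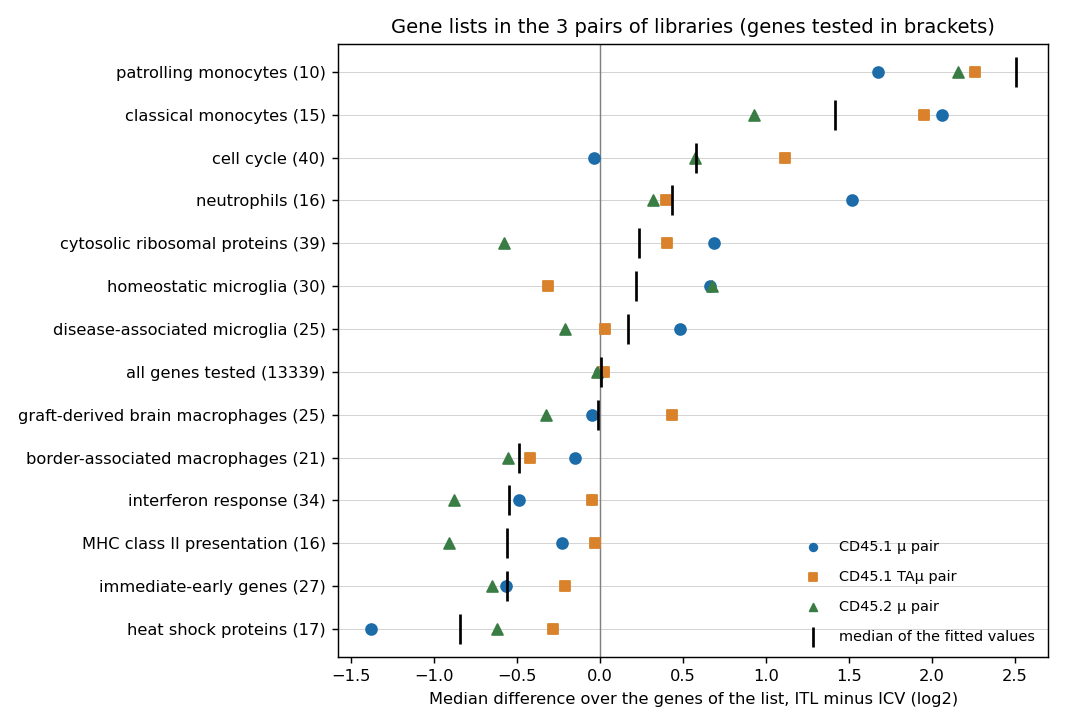
Median ITL minus ICV difference (log2) over the tested genes of 13 lists and over all genes, for each of the 3 pairs of libraries, with the median of the fitted values as a black bar. Both monocyte lists lie above 0 and the heat shock and immediate-early lists below 0 in each pair, while homeostatic microglia, ribosomal proteins and graft-derived macrophages have pairs on both sides of 0.

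Antigen presentation and interferon genes leaned towards ICV, by the list medians mainly in the CD45.2 µ pair. Single genes varied: Cd86, Ifit2 and Stat2 had their widest difference in the CD45.1 µ pair. Cd74, the chaperone of MHC class II, had 896, 3006 and 747 CPM in ITL libraries and 1351, 3082 and 2526 CPM in ICV libraries (log2 fold change -0.82 ± 0.35 SE). H2-Ab1, a class II chain, had 167, 767 and 169 CPM in ITL libraries and 403, 572 and 581 CPM in ICV libraries. Cd86, a costimulatory ligand, had 240, 287 and 277 CPM in ITL libraries, against 545, 348 and 310 CPM in ICV libraries, with no overlap. Of 16 class II genes 11 had a fitted value below 0, with a median of -0.56 and with pair medians of -0.23, -0.03 and -0.91. Without ICV CD45.2 µ the median was -0.04.

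Ifit2, an interferon-induced inhibitor of translation, had 8.92, 26.8 and 6.06 CPM in ITL libraries, against 74.7, 28.9 and 36 CPM in ICV libraries (log2 fold change -2.05 ± 0.61 SE). Stat2, a factor that carries the type I interferon signal, had 40.6, 45.3 and 42.1 CPM in ITL libraries, against 85.7, 73.8 and 66.9 CPM in ICV libraries (-0.84 ± 0.36 SE). Of 34 interferon-response genes tested 28 had a fitted value below 0 and 6 above, with a median of -0.55 and no overlap for 5, beside 5.06% of all genes. In the CD45.2 µ pair 31 of the 34 were lower in ITL, in the CD45.1 µ pair 24 and in the CD45.1 TAµ pair 18. The pair medians were -0.48, -0.05 and -0.88, and without ICV CD45.2 µ the list median was 0.05.

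Cell cycle genes were of low level and leaned towards ITL. Rrm2, a subunit of ribonucleotide reductase, had 15.3, 8.91 and 16.2 CPM in ITL libraries, against 0, 2 and 6.37 CPM in ICV libraries. Top2a, a topoisomerase of dividing cells, had 37.7, 44.1 and 60.1 CPM in ITL libraries and 30.6, 42.9 and 25.6 CPM in ICV libraries. Mki67, the proliferation marker, did not follow them, with 134, 82.9 and 97.9 CPM in ITL libraries and 155, 77.9 and 75.8 CPM in ICV libraries. Of 40 tested genes 29 had a fitted value above 0, the median was 0.58, and the groups did not overlap for 6, beside 4.85% of all genes. By pair the medians were -0.03, 1.11 and 0.57.

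Genes of cytosolic ribosomal proteins differed in sign between populations. In the CD45.1 µ pair 38 of 39 were higher in ITL and in the CD45.1 TAµ pair 36, while in the CD45.2 µ pair 37 were lower. Their medians were 0.69, 0.41 and -0.58, and the fitted median of 0.23 became -0.03 without ICV CD45.1 µ.

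Some large differences rested on 1 library. Transcripts of the choroid plexus, the epithelium that secretes cerebrospinal fluid into the ventricles, were abundant in ICV CD45.1 µ. Ttr, the thyroid hormone carrier transthyretin, had 17.8, 21.1 and 32.2 CPM in ITL libraries and 786, 48.5 and 3.70 CPM in ICV libraries. Within the CD45.1 µ pair Ttr was 44.1 times lower in ITL, with an exact 95% interval from 38.3 to 50.9 that covers counting error only. Enpp2, the enzyme autotaxin, had 9.54, 27.3 and 78.9 CPM in ITL libraries and 472, 121 and 16.4 CPM in ICV libraries. The 15 listed choroid plexus and ependymal genes summed to 27.4, 58.7 and 122 CPM in ITL libraries and to 1361, 187 and 22.7 CPM in ICV libraries. Enpp2 alone held 121 of the 187 CPM in ICV CD45.1 TAµ and 78.9 of the 122 CPM in ITL CD45.2 µ. Folr1 and Otx2, defining genes of this epithelium, were too low to be tested. All 8 tested members had a fitted value below 0, with a median of -1.71, but the sign turned without ICV CD45.1 µ, where the median was 0.33.

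Oligodendrocyte transcripts were highest in ICV CD45.1 TAµ. Cldn11, a tight junction gene of myelin, had 1.85, 6.54 and 29.8 CPM in ITL libraries and 0, 125 and 9.86 CPM in ICV libraries. In the CD45.1 TAµ pair Cldn11 was 19.1 times lower in ITL, with a counting interval from 14.7 to 25.4. The 15 listed oligodendrocyte genes summed to 1540, 1422 and 1736 CPM in ITL libraries and to 1548, 3119 and 1277 CPM in ICV libraries. The 19 endothelial and mural genes summed to 286, 285 and 513 CPM in ITL libraries and to 188, 913 and 239 CPM in ICV libraries. The ITL and ICV sums overlapped for each list of oligodendrocyte, progenitor, astrocyte, neuron, endothelial, choroid plexus and leptomeningeal genes.

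The genes with the widest ratios within a pair included these transcripts. In the CD45.1 TAµ pair Ace was 26.2 times and Adgre4 11.9 times higher in ITL, and Mpo was 36.3 times lower. In the CD45.2 µ pair Adgre4 was 21.2 times and Ace 9.62 times higher in ITL. Adamts1, a matrix protease, had 178, 2.93 and 684 CPM in ITL libraries and 70.3, 14.5 and 91.4 CPM in ICV libraries, and so was 7.48 times higher in the CD45.2 µ pair. Vcam1 was 9.44 times lower in ITL in that pair. Acp5, an acid phosphatase of macrophages and osteoclasts, had 72.1, 76.5 and 3.11 CPM in ITL libraries and 0, 11.9 and 10.5 CPM in ICV libraries. Its 0 in ICV CD45.1 µ allows up to 0.248 CPM, and at that limit the ratio of the pair would be 291-fold. The exact 95% interval, which also covers counting error in ITL CD45.1 µ, starts at 236. ICV CD45.1 µ had the fewest genes detected of the ITL and ICV libraries, and other genes were also lowest there. Sgta had 1.07 CPM in ICV CD45.1 µ, beside 73.9 and 43.1 CPM in ICV CD45.1 TAµ and CD45.2 µ. Abca13 had 0, 5.16 and 29.9 CPM in ICV libraries. The part of low gene detection in these ratios was not tested.

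Sex-linked transcripts differed along with the route. Xist, the RNA that silences an X chromosome in female cells, had 1324, 54.9 and 5100 CPM in ITL libraries, against 5790, 489 and 6995 CPM in ICV libraries. It was lower in ITL in all 3 pairs, most in CD45.1 TAµ, and the fitted log2 fold change was -2.25 ± 0.62 (SE). The Y-linked transcripts Ddx3y, Eif2s3y, Kdm5d and Uty together had 165, 316 and 3.42 CPM in ITL libraries, against 75.5, 211 and 1.34 CPM in ICV libraries. Xist and Y-linked transcripts were both present in the CD45.1 µ and CD45.1 TAµ libraries of either route, with the lowest Xist level in ITL CD45.1 TAµ. Xist and the Y-linked sum thus moved with the route in every pair, though the Y-linked sum of the CD45.2 µ pair was very low under both routes. The part of these transcripts in the other differences was not tested.

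**Figure D5:**
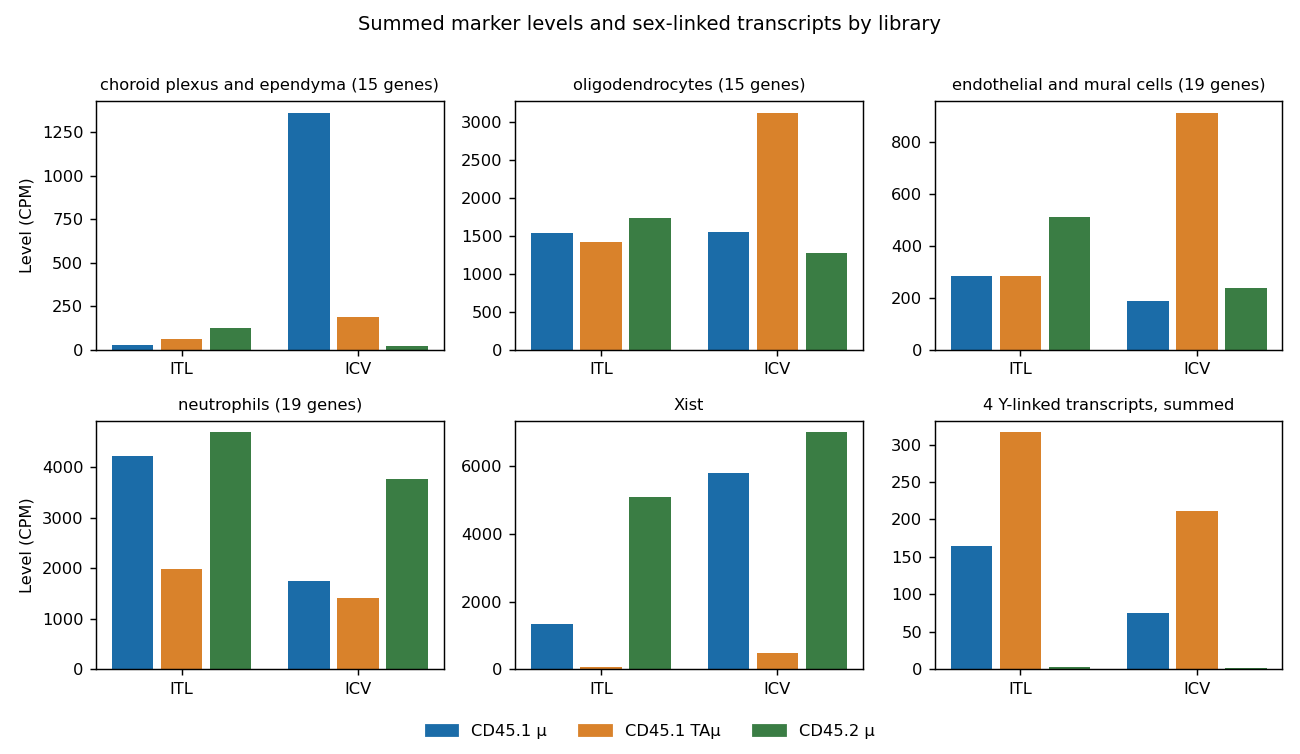
Summed level (CPM) of 4 marker lists, level of Xist and summed level of 4 Y-linked transcripts in the 3 ITL libraries (left bars) and the 3 ICV libraries (right bars), coloured by sorted population. Choroid plexus genes reach 1361 CPM in ICV CD45.1 µ and at most 187 CPM in the other libraries; Xist is lower and the Y-linked sum higher in the ITL library of each pair.

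The remaining genes with the smallest p or the widest gap had various roles. Higher in all 3 ITL libraries were Rtn1, a reticulon of the endoplasmic reticulum, with 71.7, 33.3 and 92.3 CPM in ITL libraries and 32.4, 6.68 and 29.6 CPM in ICV libraries, and Gngt2, a G protein subunit, with 65.2, 68.0 and 57.3 CPM in ITL libraries and 6.61, 18.1 and 28.7 CPM in ICV libraries. Fcgr4, an activating Fc receptor of monocytes, had 35.4, 46.9 and 25.9 CPM in ITL libraries, against 10.9, 12.8 and 8.88 CPM in ICV libraries. Gsr, glutathione reductase, had 104, 99.5 and 118 CPM in ITL libraries, against 3.64, 19.1 and 52.6 CPM in ICV libraries. Ywhah, a 14-3-3 protein, and Rap1gap2, a regulator of the small GTPase Rap, also lay apart, with log2 fold changes of 0.94 ± 0.25 and 1.31 ± 0.36 (SE). Lrrc3 and St3gal5, the ganglioside GM3 synthase, were higher in each pair with overlapping groups (1.20 ± 0.28 and 1.37 ± 0.35 SE).

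On the lower side, Errfi1, a feedback inhibitor of the epidermal growth factor receptor, had 64.8, 79.2 and 55.8 CPM in ITL libraries, against 143, 123 and 145 CPM in ICV libraries. Whrn, a scaffold protein, had 65.9, 62.6 and 72.4 CPM in ITL libraries, against 144, 144 and 122 CPM in ICV libraries (log2 fold change -1.02 ± 0.24 SE). Plekhg5, an exchange factor for small GTPases, had 16.0, 25.7 and 17.1 CPM in ITL libraries, against 54.7, 43.6 and 45.7 CPM in ICV libraries. Pak4, Enthd2 and Samd4 were lower in each ITL library at low levels, between 3.88 and 28.6 CPM in all 6 libraries.

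Of the 8 higher genes with the smallest p, the mean of the IV libraries lay in the ITL range for 6, in the ICV range for 1 and between them for 1. Of the 8 lower genes it lay in the ITL range for 2, Vcam1 and Cp, in the ICV range for 2, Tsc22d3 and Bag3, between for 3, and beyond the ICV range for Fosb. The ICV library labelled PBS lay in the ITL range for 3 of the 8 higher genes and beyond it for 1. It lay in both ranges for 2 of them and between for 2. Of the 8 lower genes it lay in the ICV range for 3, beyond that range for 1 and between for 1. For 2 others, Vcam1 and Cp, it lay in the ITL range, and for Whrn beyond it. These genes were chosen on the ITL and ICV libraries, so the counts describe them and test nothing.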

How the data were processed

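Polyadenylated RNA of sorted brain myeloid cells was sequenced, 1 library per route and population. For each library the authors deposited a table of raw counts for the same 24411 gene symbols. STAR and the mouse builds mm39 and GRCm39 are named, per the submitters' processing notes; version, annotation and strand setting were not given in the sources used here, so overlapping and antisense genes cannot be told apart. All columns were assigned, so 0 were left over.

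The 9 ITL, ICV and IV libraries entered 1 model with additive terms for route and population in edgeR 4.0.16 in R 4.3.3, which left 4 residual degrees of freedom. Genes were kept by edgeR's filter (minimum count 10, minimum total 15; 13339 kept), scaled by TMM and tested by the quasi-likelihood F test with Benjamini-Hochberg adjustment at 0.05 (biological coefficient of variation 0.842). CPM are counts over the library total times the TMM factor; differences within a pair are log2 CPM with a prior count of 2. The SE is the log2 fold change over the square root of F. With 1 library each, an interaction could not be tested. Nothing in the labels says that libraries came from separate animals, so p-values measure the spread between these libraries. Over 55 pairs of libraries no duplicate was found (chi-square per degree of freedom at least 42.8). The fit was also run on simulated data, whose results are not given here. Intervals of ratios and the limit for a count of 0 (3 counts) cover counting error only; without molecular identifiers, reads are not separate molecules.

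The comparison and the 43 gene lists (793 genes, 782 in the tables) were chosen with earlier results of these data known. By rule, the text names the 8 genes each way with the smallest p among those with the same sign in 3 populations and a log2 CPM that averages 3 or more, up to 6 genes each way with the widest ratio within a pair at 50 CPM or more or with the widest gap between the routes, up to 5 members of each list, and Ptprc, Trem2, Cx3cr1, Apoe, P2ry12, Tmem119, Sall1, Ms4a7, Xist and the Y-linked sum. Predicted genes were skipped. Members named because they overlapped or went the other way (such as Nr4a1, Egr1 and Mki67) were chosen after their values were seen. Some genes that enter the counts and medians are not reported here by name. Alternatives were DESeq2 1.42.0, limma-voom (limma 3.58.1), other filters, scalings and fits, and leaving out libraries.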

Additional observations from a re-analysis of the deposited data

Results flagged for a closer look

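Several marker lists of brain cells other than macrophages had ITL minus ICV medians of opposite sign in different populations; the difference between populations was not tested, with 1 library each. For choroid plexus and ependymal genes the medians were -6.21 in the CD45.1 µ pair, -1.06 in CD45.1 TAµ and 2.28 in CD45.2 µ, a spread of 8.49 on the log2 scale. Endothelial and mural genes had medians of 3.29, -2.38 and 1.55, a spread of 5.67. Oligodendrocyte genes had 0.48, -2.83 and 1.58, a spread of 4.41. Oligodendrocyte progenitor genes had 0.97, -1.17 and 1.16, a spread of 2.33. The part of such transcripts in the other differences between ITL and ICV libraries was not tested.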

How the results depend on the processing

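The count of genes past the adjusted threshold was 0 in each direction under DESeq2's size factors, a filter of 10 CPM in 3 libraries, the 6 libraries alone, no population block and counts without Rn45s. The legacy setting of the quasi-likelihood fit returned the same values as the reported fit, so it was not a separate check. It was 14 higher and 20 lower with no filter on low counts, 14 and 18 with DESeq2, and 2 and 1 with limma-voom, which called Adamts1 and Sall1 higher and Stab1 lower; the cause was not tested. Leaving out each of the 9 libraries in turn gave 0 to 1 higher and 0 lower, the 1 being Adgre4 without IV CD45.2 µ. Leaving out both ICV CD45.1 µ and IV CD45.2 µ, chosen after the data were seen, gave 8 and 3. Several DESeq2 calls are genes with counts in few libraries. Signs reversed for 4 genes, none past the threshold. Cx3cr1 became -0.0553 with limma-voom, -0.118 without ITL CD45.1 µ, -0.121 without ICV CD45.1 µ and -0.12 without both ICV CD45.1 µ and IV CD45.2 µ. Its highest value with a library left out was 0.175. Trem2 became -0.184 without ICV CD45.1 µ and -0.212 without both (highest 0.678). Ptprc became -0.0637 without ITL CD45.2 µ and -0.0986 without ICV CD45.1 TAµ. Its highest value was 0.242 with 1 library left out and 0.289 without both ICV CD45.1 µ and IV CD45.2 µ. Apoe became 0.0275 without ICV CD45.2 µ. Its lowest values were -1.29 without ICV CD45.1 µ and -1.30 without both ICV CD45.1 µ and IV CD45.2 µ. Leaving out ICV CD45.2 µ also moved the median of all genes to 0.15. With a minimum of 30 counts, genes past 4-fold numbered 1570 higher and 967 lower in the CD45.1 µ pair, 491 and 645 in CD45.1 TAµ, and 304 and 491 in CD45.2 µ; with 300 counts they numbered 189 and 184, 30 and 96, and 20 and 65. Without the CD45.1 µ pair, 1972 genes lay wholly above and 1960 wholly below. Libraries were matched by population, which is a term of the reported fit. Beyond that, no paired analysis was possible because the labels name neither animals nor replicate numbers. A count of 0 allows 0.466 CPM in the shallowest library, ITL CD45.2 µ, and 0.154 CPM in the deepest, ICV CD45.2 µ.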
